A study of Danio rerio with 6 samples.

Results

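The vitellogenins vtg1 (ENSDARG00000092233), vtg2 (ENSDARG00000055809) and vtg3 (ENSDARG00000016448) were examined in whole juvenile zebrafish raised with or without the aromatase inhibitor exemestane (EM). The 3 genes were taken by their Ensembl identifiers from the 32520 genes of the count table, and all 3 had reads. The fish were of the AB strain, and gene expression was measured by RNA-seq at an age of 32 days. EM-juveniles were exposed to EM at 10 µg/L, in the solvent dimethyl sulfoxide (DMSO), for 32 days, and control juveniles to DMSO alone at 10 µL/L. Each group had 3 libraries, and each library was made from the pooled whole bodies of 25 fish from 1 tank. The sex of the pooled fish is not given in the labels. A library therefore gives the sum over its fish, and the number of fish that carried a transcript and the level in each of them cannot be told apart. In the same way, fewer cells of a type cannot be told apart from less RNA per cell.

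Vitellogenins are the precursors of egg yolk. In egg-laying vertebrates, estrogen from the ovary acts on the liver through the estrogen receptor, and hepatocytes then make vitellogenin in large amounts and release it into the blood. Growing oocytes take it up through receptors of the low-density lipoprotein receptor family and cut it with cathepsins into the stored yolk proteins. Aromatase makes the estrogen from androgens, and EM is a steroidal inhibitor of this enzyme. Of the zebrafish genes, vtg1 belongs to a group of very similar copies, vtg2 is a separate form, and vtg3 encodes a form that lacks phosvitin, the serine-rich phosphorylated part of the yolk.

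The total count per library ran from 3169530 to 7804654. Control replicate 2 was the library with the lowest total and stood apart from the others, with 21182 genes detected against 24418 to 24966 in the rest. Read counts below are normalised by the size factors of DESeq2 unless raw counts are named. They are not divided by transcript length, so ranks and shares among genes below are of reads and not of transcript levels.

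Vitellogenin transcripts were abundant in control replicate 1 and close to absent from the other 5 libraries. Per-library values are listed in the order of the replicate numbers 1, 2 and 3. The raw counts of vtg1 were 4661, 0 and 2 in the controls, and 0, 2 and 6 in the EM-juveniles. For vtg2 they were 5378, 1 and 0 in the controls, and 1, 0 and 0 in the EM-juveniles. For vtg3 they were 1012, 3 and 2 in the controls, and 2, 0 and 5 in the EM-juveniles. In each of the 3 genes a single control library was high, and the groups overlapped, since control replicate 3 lay within the range of the EM libraries. Control replicate 2, the library of lowest depth, lay above every EM library after normalisation in vtg2 (2.48 against at most 0.585) and vtg3 (7.43 against at most 5.6), on 1 and 3 reads. In counts scaled to a common library total (CPM), the order of vtg2 held. That of vtg3 did not, with 0.947 in control replicate 2 and 1.23 in EM replicate 3. In control replicate 1 the 3 genes together took 11051 of 6020241 counts, a share of 0.184% (95% Wilson interval 0.180 to 0.187%). The same genes together had 2 to 11 counts in each of the other libraries, at most 2.71 CPM, in EM replicate 3. By raw count, vtg2 ranked 100, vtg1 ranked 115 and vtg3 ranked 936 among the genes of control replicate 1. Intervals on counts cover counting error only.

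**Figure D1:**
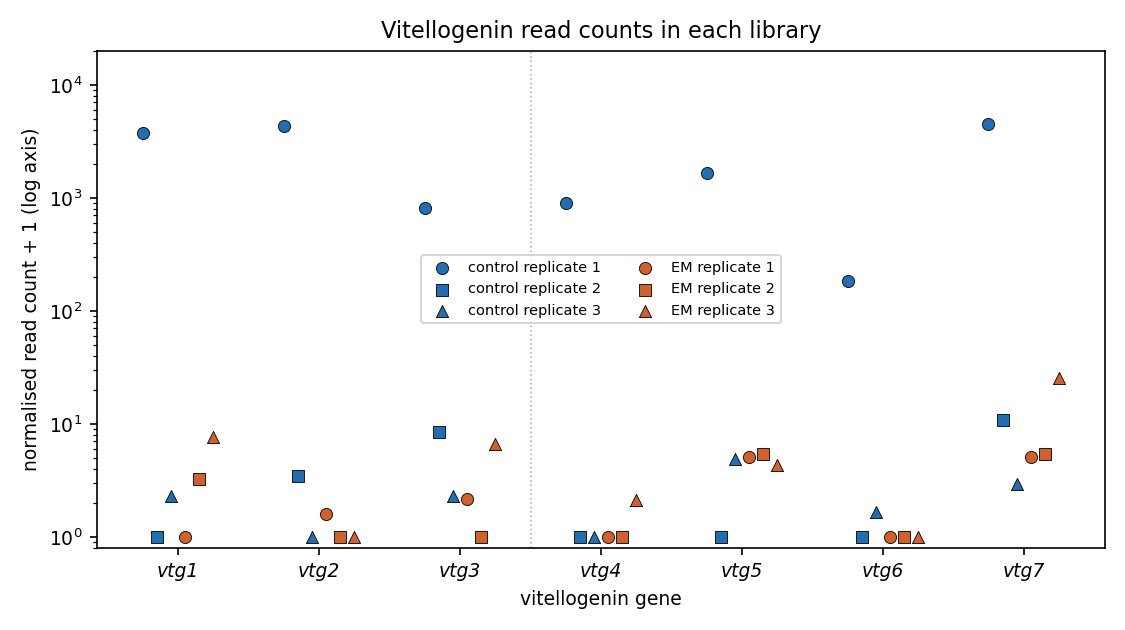
Normalised read count plus 1 (log axis) of 7 vitellogenin genes in each library, with control juveniles in blue, EM-juveniles in orange and 1 marker shape per replicate number. Control replicate 1 lies between 181.8 (vtg6) and 4506 (vtg7), while the highest of the other libraries is 24.6 (vtg7, EM replicate 3).

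Control replicate 1 stood apart from the other controls as well as from the EM-juveniles. In CPM, vtg1 in control replicate 1 was 2835 times its level in control replicate 3 (exact interval 784.5 to 23420) and 524 times that in EM replicate 3 (240.4 to 1427). It was at least 818-fold higher than in control replicate 2, where no read was counted, against a floor of 3 counts in that library. For vtg2, control replicate 1 exceeded control replicate 2 by a ratio of 2831 (508 to 111900) and EM replicate 1 by 6972 (1251 to 275400). The ratios of vtg3 were smaller, at 178 against control replicate 2 (60.6 to 862.6) and 136 against EM replicate 3 (58.3 to 421). These ratios compare libraries and not conditions.

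The comparison of EM-juveniles with control juveniles asks whether blocking aromatase lowered the estrogen-driven yolk genes. The mean normalised read count of vtg1 was 1250 ± 2164 (SD, n = 3) in control juveniles and 2.98 ± 3.42 (SD, n = 3) in EM-juveniles. The corresponding means were 1443 ± 2497 and 0.195 ± 0.338 for vtg2, and 274 ± 468 and 2.26 ± 2.95 for vtg3. In each gene the SD of the controls exceeded their mean. The log2 fold change estimated by DESeq2 was -8.72 ± 3.40 (SE) for vtg1, -12.69 ± 3.91 for vtg2 and -6.94 ± 2.41 for vtg3, and as fitted values against a group near 0 they are no measure of size.

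DESeq2 gave no p-value for any of the 3 genes, because their largest Cook's distance, a measure of how much 1 library moves the fit, was 33.8 to 37.4 against a limit of 18. This filter removed 55 genes in all, of which 11 were highest in control replicate 1 and 41 in control replicate 2. With the filter switched off, DESeq2 adjusted p-values were 0.363 for vtg1, 0.0928 for vtg2 and 0.215 for vtg3, so 0 of the 3 genes were called at 0.05, against 1.09% of all genes tested in that fit and 1.08% in the fit with the filter. The expression filter of the edgeR quasi-likelihood test removed all 3 genes. Without that filter its adjusted p-values were 0.667, 0.578 and 0.63 for vtg1, vtg2 and vtg3, at unadjusted p-values of 0.0122, 0.00692 and 0.0106. An exact permutation test of the mean log2(count + 1) gave two-sided p = 0.9, 0.4 and 0.2 in the same order, where 0.1 is the smallest p-value that 3 libraries against 3 allow. The share of counts held by the 3 genes together gave p = 0.5 in the exact permutation test. In every split the group that holds control replicate 1 has the higher mean. These permutation p-values therefore turn on which of the libraries near 0 reads join it. They cannot respond to the size of its excess, and no conclusion is drawn from them.

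In all 3 genes the size of the difference rested on control replicate 1. With that library left out, each DESeq2 estimate was smaller in size than its SE, so no direction could be told. Without it, the DESeq2 log2 fold change was 1.74 ± 2.63 (SE) for vtg1, -1.77 ± 4.42 for vtg2 and -0.87 ± 1.97 for vtg3, with a DESeq2 adjusted p-value of 0.982 for vtg1, of 0.986 for vtg3 and none for vtg2, which was removed for its low mean. Without control replicate 2, 0 of the 3 genes were called (DESeq2 adjusted p-values of 0.121, 0.132 and 0.238), against 270 of 23411 genes tested. Without control replicate 3, vtg2 passed the threshold (DESeq2 adjusted p = 0.0221), among 270 called of 21168 genes tested. That fit leaves control replicate 1 and control replicate 2 alone as controls. The Cook's distance filter acts only on groups of at least 3 libraries. In the fits with a control left out it could therefore not act on the controls, and it removed none of the 3 genes. In raw counts, the 3 genes together had 16 reads in the EM-juveniles and 8 in control replicates 2 and 3, a ratio of 1.31 in CPM (exact interval 0.528 to 3.53). At this depth a difference between the EM-juveniles and those 2 controls was not detectable.

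**Figure D2:**
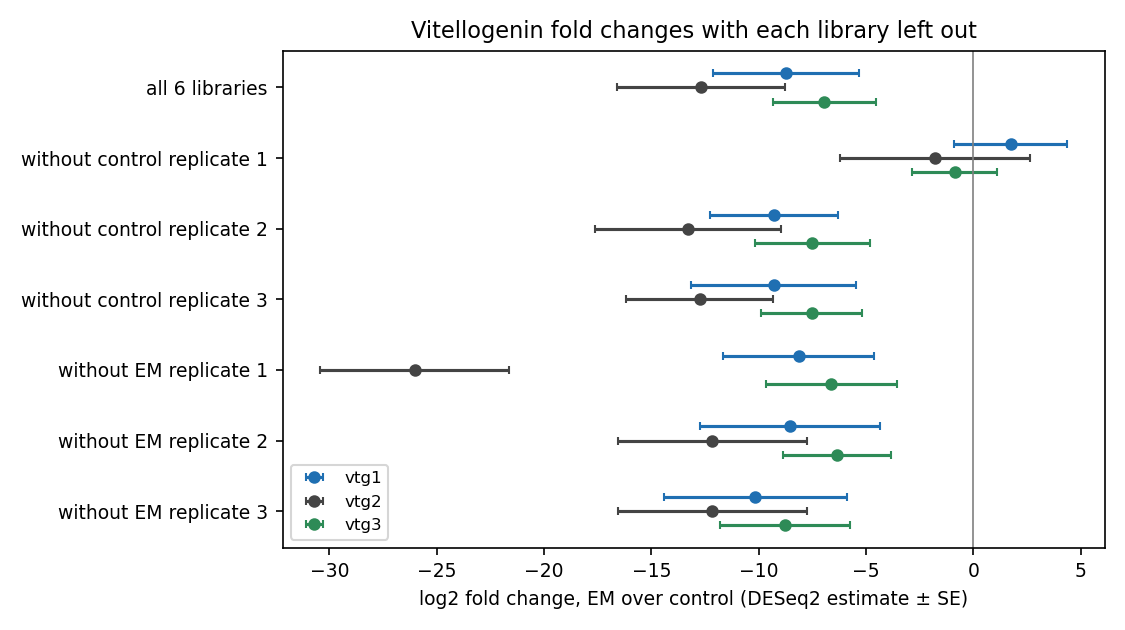
Log2 fold change of EM-juveniles over control juveniles for vtg1, vtg2 and vtg3, estimated by DESeq2 with its SE (bars), with all 6 libraries and with each library left out in turn. Without control replicate 1 the estimates lie between -1.77 and 1.74, and every other estimate is at or below -6.36. The estimate of -26.03 for vtg2 without EM replicate 1 comes from a group with no reads.

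The 4 other vitellogenins of the list, vtg4, vtg5, vtg6 and vtg7, followed the same libraries. The raw counts of vtg7 were 5602, 4 and 3 in the controls and 7, 4 and 22 in the EM-juveniles. For vtg5 they were 2052, 0 and 6 in the controls and 7, 4 and 3 in the EM-juveniles. For vtg4 they were 1124, 0 and 0 in the controls and 0, 0 and 1 in the EM-juveniles, and for vtg6 they were 226, 0 and 1 in the controls and 0 in each EM library. The Cook's distance filter removed all 4 of these genes as well, and with it off 0 of the 4 were called (adjusted p-values of 0.13 to 0.587). Without control replicate 2, DESeq2 called 1 of them, vtg5, at an adjusted p-value of 0.0134, against 270 of 23411 genes tested. That fit kept control replicate 1, and with 2 controls left the Cook's distance filter could not act on them. The call of vtg5 therefore passed no such check on control replicate 1. Very similar copies compete for reads, and reads shared between the copies may be lost or misassigned in the count, so the split among vtg1, vtg4, vtg5, vtg6 and vtg7 is uncertain. Summed into 1 feature, the 5 had a log2 fold change of -7.64 ± 2.26 (SE) and were also removed by the filter.

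The 7 vitellogenins held 20055 counts in control replicate 1, or 3331 CPM, and 8 to 37 counts in each of the other libraries. Of the counts in control replicate 1, vtg7 took 27.9%, vtg2 26.8%, vtg1 23.2%, vtg5 10.2%, vtg4 5.6%, vtg3 5.05% and vtg6 1.13%. EM replicate 3 had the most of the remaining libraries, and 22 of its 37 counts were of vtg7, a share of 59.5% (95% Wilson interval 43.5 to 73.7%). The 7 genes together had 64 counts in the EM-juveniles and 22 in control replicates 2 and 3, a ratio of 1.9 in CPM (exact interval 1.16 to 3.25). Without EM replicate 3 the ratio was 1.08 (0.59 to 1.98), so the excess lay in that library. These ratios leave out the libraries with the most vitellogenin counts, control replicate 1 and then EM replicate 3. Their intervals cover counting error only and not the spread between tanks, so they are no test of EM.

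The position of the genes was read from the RefSeq annotation of the GRCz12tu assembly, which is not the build of the counts, and was used for the order of neighbours only. On 1 chromosome vtg5, vtg4, vtg6, vtg7, vtg2 and vtg8 follow each other in this order, and vtg3 lies on another chromosome. The last of the row, vtg8, had raw counts of 11, 0 and 3 in the controls and 6, 1 and 0 in the EM-juveniles. Outside the row, fam20cl was high in control replicate 1. The protein-coding genes p3h2, clcc1, mcoln2, lpar3, nptxrb and polr3f were not. The cation channel gene mcoln2 had raw counts of 26, 0 and 26 in the controls and 13, 7 and 10 in the EM-juveniles. The RNA polymerase subunit gene polr3f had 54, 25 and 86 in the controls and 77, 48 and 50 in the EM-juveniles. Beside vtg3, ifi30b had 22, 5 and 28 counts in the controls and 31, 19 and 23 in the EM-juveniles, and adgrl4 had 39, 11 and 54 in the controls and 62, 27 and 38 in the EM-juveniles. Thus vtg2 and vtg4 to vtg7 on one chromosome and vtg3 on another were high in control replicate 1, while ifi30b and adgrl4 were not. The normalised read count of vtg8 was 8.85 there and at most 3.51 elsewhere, on too few reads for a contrast. The member vtg1 was not named among the neighbours read.

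All genes were then ranked by the ratio of control replicate 1 to the highest of the other 5 libraries, after adding 1 to each normalised read count. This ranking was chosen after the values of the vitellogenins had been seen. Of 19280 genes with a mean normalised read count of at least 10, 11 genes (0.0571%) were at least 8-fold higher in control replicate 1 than in every other library. The corresponding numbers were 114 for control replicate 2, 1 each for control replicate 3 and EM replicate 2, and 0 for EM replicates 1 and 3. The 7 vitellogenins held the first 7 places, from vtg2 at 1245-fold to vtg3 at 96.7-fold, with vtg1 in second place at 486-fold. The other 4 genes were f13a1, fam20cl, nots and esr1. All 11 genes reached the limit on the mean only through control replicate 1, the library that the ranking scores. Their places in it describe that library and are no separate support.

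The 4 genes other than the vitellogenins had fewer reads than the members. Raw counts of f13a1 (ENSDARG00000045453), named for the A subunit of coagulation factor XIII, were 521, 0 and 4 in the controls and 3, 2 and 3 in the EM-juveniles. Those of fam20cl, named for its likeness to the kinase of secreted proteins FAM20C, were 161, 0 and 1 in the controls and 0, 1 and 0 in the EM-juveniles. It lies in the stretch beyond vtg8 in the same annotation. Those of nots, the aspartic protease nothepsin of fish liver, were 137, 0 and 2 in the controls and 4, 2 and 6 in the EM-juveniles. The first gene under the limit was ENSDARG00000098360 at 7.54-fold.

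**Figure D3:**
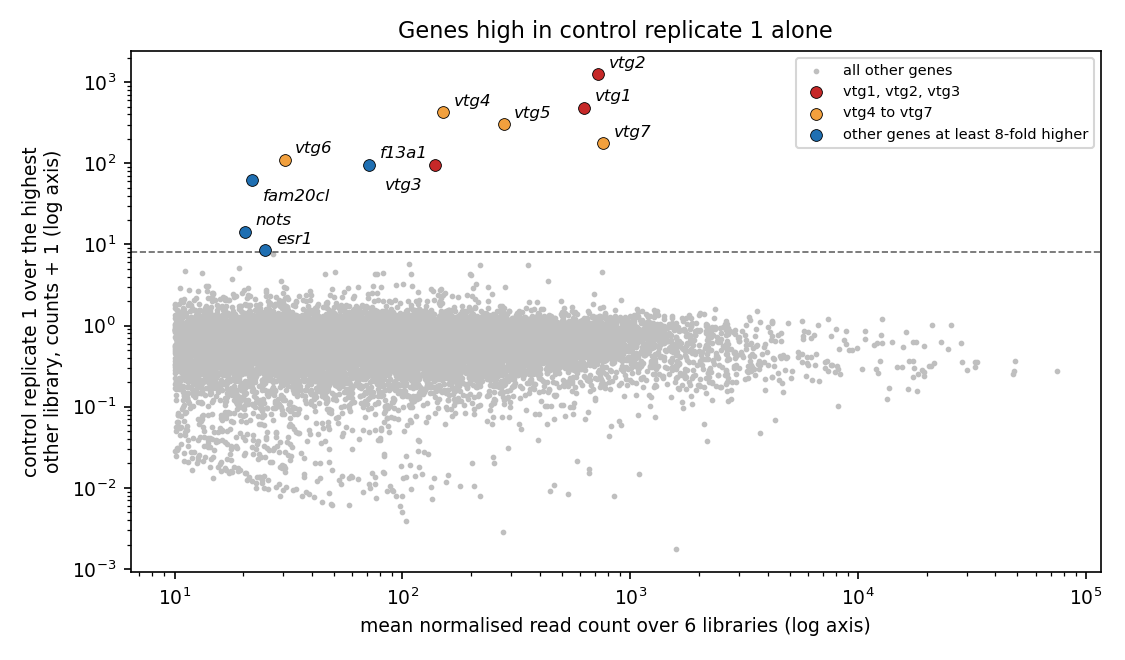
Ratio of control replicate 1 to the highest of the other 5 libraries (normalised read counts plus 1, log axis) against the mean normalised read count over 6 libraries (log axis), for 19280 genes. The dashed line marks 8-fold. The 3 members (red) and vtg4 to vtg7 (orange) lie at 96.7-fold to 1245-fold, f13a1 and fam20cl at 96.4-fold and 61.9-fold, and nots and esr1 at 14.4-fold and 8.51-fold.

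By Pearson's r of log2(count + 1) over the 6 libraries, the genes most like each member were also listed, 5 for each, with r from 0.963 to 0.995. With 5 libraries near 0 counts this measure rests on control replicate 1 and does not weigh the size of a change. Along with vtg2, vtg4, vtg6 and vtg7, it named genes with small differences, among them ilvbl for vtg1 (raw counts of 394, 80 and 317 in the controls and 352, 191 and 197 in the EM-juveniles). For vtg2 the first was mttp, which loads lipid onto lipoproteins. Its normalised read count was 866 in control replicate 1, 510 and 512 in the other controls, and 464 to 518 in the EM-juveniles. The lipid synthesis gene acaca, which encodes acetyl-CoA carboxylase, was named for both vtg2 and vtg3. Its normalised read count was 2331 in control replicate 1, 476 and 442 in the other controls, and 293 to 509 in the EM-juveniles (DESeq2 adjusted p = 0.723). A gene of the same pathway, scd, had 685 in control replicate 1, 4.95 and 114 in the other controls and 69.9 to 160 in the EM-juveniles. Other genes of lipid synthesis followed less or not at all. The ratio of control replicate 1 to the highest other library was 2.05 for fasn, 1.46 for elovl6 and 0.974 for srebf1. These genes and scd were chosen after their values were seen.

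The genes of estrogen synthesis and reception were examined next. The listed genes cyp19a1b and esr2b had no paired identifier and were not analysed. Among the 4 analysed, the receptor gene esr1, which mediates the liver response to estrogen, was the one most raised in control replicate 1. Its raw counts were 133, 4 and 18 in the controls and 16, 4 and 7 in the EM-juveniles. Normalised, these were 107, 9.91 and 11.7 in the controls and 9.37, 4.44 and 7.84 in the EM-juveniles, so all EM libraries lay below all controls, as they did in 5.6% of genes tested. This order depended on the scaling, since in CPM EM replicates 1 and 3 (2.05 and 1.73) lay above control replicate 2 (1.26). The log2 fold change was -2.58 ± 1.00 (SE), with an adjusted p-value of 0.368 in DESeq2 and 0.916 in edgeR, without control replicate 1 it was -0.58 ± 0.99, and without control replicate 2 it was -3.02 ± 0.91 (DESeq2 adjusted p = 0.0723). The gonadal aromatase gene cyp19a1a had 2 raw counts in control replicate 3, 2 in EM replicate 3 and 0 elsewhere, and hsd17b1 had at most 2, so neither could be compared at this depth. Counts of esr2a were 71.6, 4.95 and 37.7 in the controls and 42.2 to 54.4 in the EM-juveniles. Of these 4 genes, esr1 and esr2a received an adjusted p-value, and 0 of the 2 were called, against 1.08% of all genes tested.

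Markers of hepatocytes, the cells that make vitellogenin, were counted in every library. The 13 liver markers summed to 19310, 4945 and 16920 CPM in control replicates 1, 2 and 3 and to 13760 to 16650 in the EM-juveniles, and none of them was at 0 in any library. None of the 13 was called, with log2 fold changes from -0.61 to 0.31 and a median of -0.16, against 1.08% of all genes called and a median of -0.0034 over all genes. The median was -0.46 without control replicate 2 and -0.04 without control replicate 1, again with 0 of the 13 called. The liver transferrin gene tfa had nearly the same level in control replicates 1 and 3 (ratio of CPM 1.01, exact interval 0.994 to 1.02), where vtg1 differed by a ratio of 2835 and esr1 by 8.99 (5.47 to 15.6). Of the 13 liver markers tfa was the one nearest to a ratio of 1 between these libraries. In normalised read counts the ratio of control replicate 1 to control replicate 3 ran from 0.306 (igfbp1a) to 2.1 (hao2). In control replicate 2 the summed liver markers were the lowest of all libraries. This sum is led by abundant genes such as tfa and apobb.1. Not every marker was lowest there, since fabp10a was highest (664.5 CPM against 457 to 552.8 elsewhere) and igfbp1a was not lowest. The remaining markers were lowest there in CPM. In normalised read counts fgb (1662, against 1402 to 1632 in the EM-juveniles) and nr0b2a (129, against 83.7 in EM replicate 1) were not. The part of the liver marker levels of control replicate 2 in its vitellogenin counts was not tested. The pancreas markers ela2l and ela3l, which encode digestive elastases, summed to 322 CPM in control replicate 1, 92.8 in control replicate 2, 1205 in control replicate 3 and 1025 to 1516 in the EM-juveniles. The part of this difference in the vitellogenin counts was not tested.

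The oocyte markers other than gdf9 had reads in all 3 control libraries, but bmp15 and btg4 had only 1 read each in control replicate 2. Of 9 oocyte markers, DESeq2 called 7 lower in EM-juveniles and 0 higher, where 0.663% of all genes tested were called lower, and the median log2 fold change was -6.56. In normalised read counts every EM library lay below every control in 8 of the 9, against 5.6% of all genes tested. For bmp15 this order did not hold in CPM, with 0.316 in control replicate 2 and 0.479 and 0.493 in EM replicates 2 and 3. Many of these markers also stand in the gene list that the study drew from the same libraries, so they are not independent evidence of a direction. The egg coat gene zp3a.1 had raw counts of 391, 42 and 253 in the controls and 0, 1 and 0 in the EM-juveniles (DESeq2 adjusted p = 2.66e-09, edgeR adjusted p = 0.0636). The egg coat gene zp3b had 423, 37 and 320 in the controls and 13, 2 and 3 in the EM-juveniles (DESeq2 adjusted p = 7.07e-11, edgeR adjusted p = 0.0791). The early oocyte factor genes gdf9 and bmp15 had at most 12 raw counts in any library and were not called. The edgeR test called 0 of the 6 oocyte markers it tested, and 0 of all 19264 genes in that fit. DESeq2 called 6 of 8 without control replicate 1 and 7 of 9 without control replicate 2. The summed oocyte markers stood at 406, 47.3 and 195 CPM in control replicates 1, 2 and 3 and at 1.68 to 3.33 in the EM-juveniles.

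**Figure D4:**
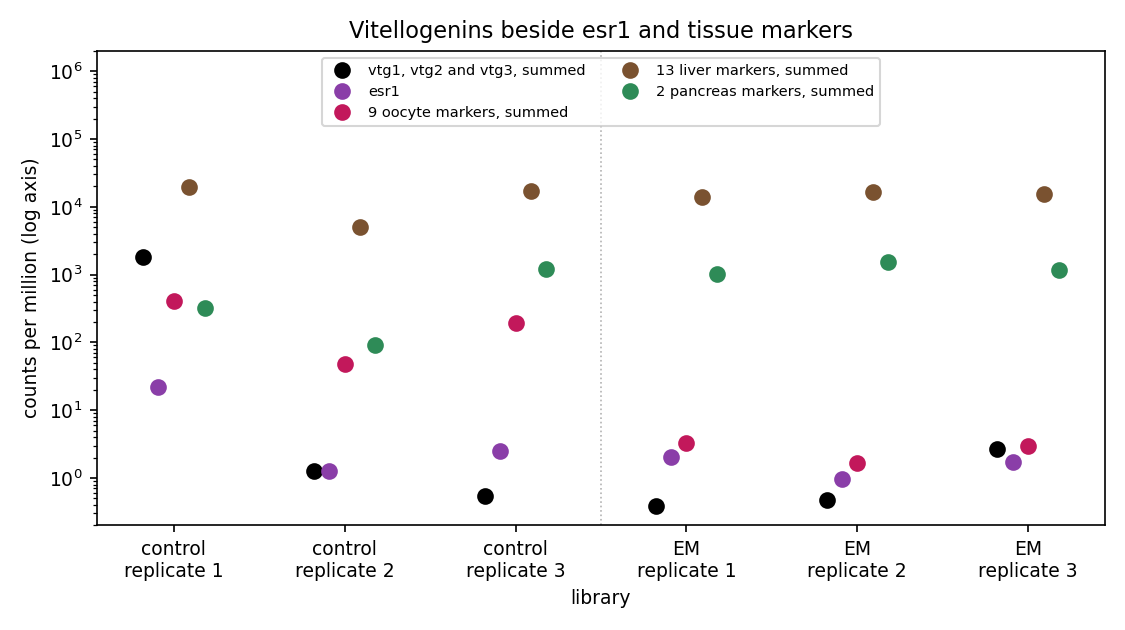
CPM (log axis) in each library of the 3 vitellogenins summed, esr1, and the summed oocyte, liver and pancreas markers, each point being 1 library. The vitellogenins stand at 1836 in control replicate 1 and at 2.71 or less elsewhere, while the oocyte markers stand at 47.3 to 406 in the controls and at 1.68 to 3.33 in the EM-juveniles.

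Of 7 receptors of the low-density lipoprotein receptor family, 1 was called lower in EM-juveniles by DESeq2, against 0.663% of all genes tested. The edgeR test called 0 of them, and 0 of all 19264 genes. The oocyte receptor gene lrp13 had raw counts of 339, 23 and 165 in the controls and 5, 1 and 1 in the EM-juveniles. The log2 fold change of lrp13 was -6.29 ± 0.90 (SE), the adjusted p-value was 4.70e-09 in DESeq2 and 0.0845 in edgeR, and it was called with control replicate 1 or 2 left out (adjusted p of 4.07e-06 and 1.16e-14). It was 2.5 times higher in control replicate 1 than in control replicate 3 in CPM (exact interval 2.07 to 3.03). The other 6 receptors, vldlr, lrp1ab, lrp2a, lrp8, ldlra and ldlrb, were not called, with log2 fold changes from -1.05 to 0.32. Normalised read counts of vldlr, the very low-density lipoprotein receptor gene, were 345, 582 and 264 in the controls and 236, 211 and 175 in the EM-juveniles (DESeq2 adjusted p = 0.574). Of the yolk-processing proteases, ctsla, ctsd and ctsh were expressed in all libraries and 0 of the 3 were called, against 1.08% of all genes tested, with log2 fold changes from 0.14 to 0.58.

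Of the male gonad genes, amh, which encodes anti-Müllerian hormone, had raw counts of 8, 0 and 20 in the controls and 99, 37 and 25 in the EM-juveniles. The adjusted p-value was 0.0827 in DESeq2 and 0.916 in edgeR, so amh was not called. In DESeq2 it was 0.43 without control replicate 1, 0.0285 without control replicate 2 and 0.471 without EM replicate 1. The second of them, gsdf, had 36, 3 and 69 raw counts in the controls and 105, 41 and 21 in the EM-juveniles.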

How the data were processed

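Whole-body RNA-seq of 6 libraries, 3 of EM-juveniles and 3 of control juveniles, was used. The deposited values are raw read counts per Ensembl gene. The authors mapped reads to GRCz11 with HISAT2 2.0.5, removed PCR duplicates with SAMtools 1.5 and counted reads over exons, by strand, with HTSeq 0.9.1. Removing duplicates can lower the counts of abundant transcripts, and how reads shared by similar vitellogenin copies were treated was not examined.

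Genes without any read were left out, and 27184 of 32520 were fitted. The main test was DESeq2 1.42.0 (two-sided Wald test, Benjamini-Hochberg adjusted p under 0.05), as in the study. The edgeR 4.0.16 quasi-likelihood test and limma 3.58.1 voom were run beside it, and single values were compared by exact permutation in scipy 1.17.1. The fits were tested on a single simulated data set with the means and spreads of these libraries. The share of false calls there exceeded the threshold in all 3 tools and most in DESeq2, so its calls are to be read beside those of edgeR. With a single set, the smaller excess in edgeR and voom cannot be told from the threshold. Normalised read counts are counts divided by DESeq2 size factors, and CPM use library totals. Whether the 3 libraries of a group came from separate spawnings is not stated, and p-values measure the spread between tanks. No 2 libraries of a group agreed within sampling noise (chi-square per degree of freedom of 6.56 to 65.5).

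The genes named are the 3 members, the listed genes of yolk formation and of tissue markers, and for each member the 5 genes of highest Pearson's r. Members and lists were chosen with earlier results of these data known. Of 49 listed symbols, 44 were paired with an identifier, through a gene name table or, for some, the study's supplementary lists, and the others were not analysed here.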

Additional observations from a re-analysis of the deposited data

How the results depend on the processing

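With DESeq2, leaving out 1 library at a time gave log2 fold changes from -10.17 to 1.74 for vtg1, from -26.03 to -1.77 for vtg2 and from -8.77 to -0.87 for vtg3, the weakest or opposite value in each case being that without control replicate 1. Of these fits, the one without control replicate 3 called vtg2 (-12.74, adjusted p = 0.0221). The Cook's distance filter removed all 3 genes where an EM library was left out. Where a control was left out, the controls were too few for the filter to act on, and it removed none. The expression filters of edgeR and voom, and the filter of 10 counts in at least 3 libraries, removed all 3 genes and gave no value. TMM factors, the Cook's distance filter off, independent filtering off and other pseudocounts turned no direction. Of these settings only the Cook's distance filter off could give a call, and it gave none. With TMM factors or independent filtering off, that filter still removed all 3 genes. The other pseudocounts entered the permutation test, whose p-value cannot fall below 0.1.

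Same-numbered libraries did not deviate together (r of -0.0049, 0.161 and -0.181 over 19280 genes), so the numbers were not taken to pair the tanks. With the replicate number as a block, DESeq2 gave 1.31 for vtg1, -3.81 for vtg2 and -4.91 for vtg3 (adjusted p-values of 1, 1 and 0.973). In edgeR without an expression filter, an alternative added after the data were seen, the block gave -3.36 for vtg1, -12.29 for vtg2 (adjusted p = 2.66e-05) and -4.89 for vtg3. The cause of these differences was not tested.

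Over all genes, DESeq2 called 260, voom 93, DESeq2 after the filter of 10 counts 90, and edgeR 0 (759 at an unadjusted p under 0.05). edgeR called 7 without an expression filter, 48 with the replicate block and 226 with the block and no expression filter, the fit that called vtg2, and DESeq2 called 174 with the block. Leaving out 1 library gave 126 to 542 calls in DESeq2 and 0 to 190 in edgeR (127 without control replicate 2). Counts of 0 to 6 in a library limit the comparison of vtg1, vtg2 and vtg3 outside control replicate 1.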
